A study of Mus musculus with 5 samples.

Results

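R-loops form where nascent RNA pairs again with the DNA template behind RNA polymerase II (RNAPII) and the other DNA strand is left single. They are known at the starts and ends of active genes, and also over repeated and other transcribed sequence. The negative elongation factor NELF, of which NELF-A and NELF-B are subunits, holds RNAPII paused shortly downstream of gene starts, and NELF-B, also called COBRA1, is known to bind BRCA1. DRIP-seq pulls down R-loops with an antibody against RNA-DNA hybrids. Its longest peaks are stretches of several kilobases with DRIP signal, and their width need not be the length of a hybrid.

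The wide DRIP peaks described here are joined DRIP peaks chosen by their width, 3000 bp or more. DRIP peaks that touched or overlapped were joined, which turned 10031 deposited peaks into 9532, and 718 of these (7.53%) reached 3000 bp. All 4 peak lists used come from primary mammary epithelial cells of virgin mice of mixed strain, 6 to 8 weeks old, with no genotype or treatment stated in the labels: RNAPII ChIP-seq, NELF-A ChIP-seq, NELF-B ChIP-seq and DRIP-seq. The cells were a single-cell suspension of thoracic and inguinal glands, and the labels name no sort for luminal or basal cells. The titles for RNAPII and DRIP name 2 libraries each behind 1 list, the NELF antibodies are homemade, and libraries had 15 (RNAPII, DRIP) or 18 (NELF) cycles of PCR. The sample of DRIP after RNase H was not analysed here, so which of these peaks depend on RNA-DNA hybrids was not tested. Genomic DNA for DRIP was digested and that for ChIP sonicated, and the part that fragment ends have in DRIP peak ends was not tested. Positions are in mm9, the peaks carry no gene names, and the cell type could not be checked against marker genes. Each target has 1 list and no replicate list. The 95% Wilson intervals given with shares therefore cover counting error alone, and no p-values were computed, since peaks are not replicates.

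Wide DRIP peaks were few but held much of the sequence under DRIP peaks. They covered 3488750 bp, which was 32.1% of all bases under DRIP peaks. Their median width was 4000 bp, with quartiles of 3250 and 5000 bp and a highest width of 74750 bp. Of the 718, 210 were 5000 bp or wider and 25 were 10000 bp or wider. A single deposited peak made up 522 of them, and 196 (27.3%) were made of 2 or more touching peaks, against 4.82% of all joined DRIP peaks. Joining adds width, so choosing by width after joining favours that higher share. Widths chose these peaks, and the DRIP score, the authors' whole number per peak with no stated unit, rises with width, so both are given as a description. The summed score had a median of 455.5 and ran from 229 to 26502.

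Most wide DRIP peaks touched RNAPII, and many ran out past the RNAPII domain. RNAPII peaks that touched were joined in the same way into 7406 domains. Of the wide DRIP peaks, 459 (63.9%, interval 60.4 to 67.4%) shared at least 1 bp with an RNAPII domain, against 22.7% of all joined DRIP peaks. Lying wholly inside 1 RNAPII domain were 123 (17.1%, 14.6 to 20.1%), against 10.7% of all. Extending beyond an RNAPII domain were 336 (46.8%, 43.2 to 50.5%), against 12.0% of all. The other 259 (36.1%, 32.6 to 39.7%) lay apart from RNAPII. The order of the last 2 classes depended on the overlap asked for: with 50% of the shorter peak, 40.95% extended and 41.92% lay apart. A wider peak can touch more by its length alone. The base in the middle of a peak does not have that advantage, and it lay in an RNAPII domain for 324 wide DRIP peaks (45.1%, 41.5 to 48.8%), against 17.1% of all. By bases, 42.5% of wide DRIP peaks and 19.6% of the narrower ones were under RNAPII.

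There was no step at 3000 bp. The share of DRIP peaks whose centre lay in RNAPII was 10.3% below 1000 bp, 22.0% from 1000 to 1750 bp, 37.5% from 2000 to 2750 bp, 44.7% from 3000 to 4750 bp and 46.2% at 5000 bp or more. The last 2 shares differed by less than their intervals (40.4 to 49.0% and 39.6 to 52.9%). Of the 88 peaks of 2750 bp, just under the limit, 52 touched RNAPII and 41 touched NELF-A. Of the 108 peaks of 3000 bp, just above it, 57 touched RNAPII and 38 touched NELF-A. Contact with NELF-A kept rising with width, from 41.2% at 2000 to 2750 bp to 56.2% at 5000 bp or more. The centre of the peak lay in NELF-A in 20.3% (17.0 to 24.0%) of peaks of 3000 to 4750 bp but in 10.5% (7.02 to 15.4%) of those of 5000 bp or more. The share of their bases under NELF-A did not fall, with 16.9% and 18.1% in the same order.

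**Figure D1:**
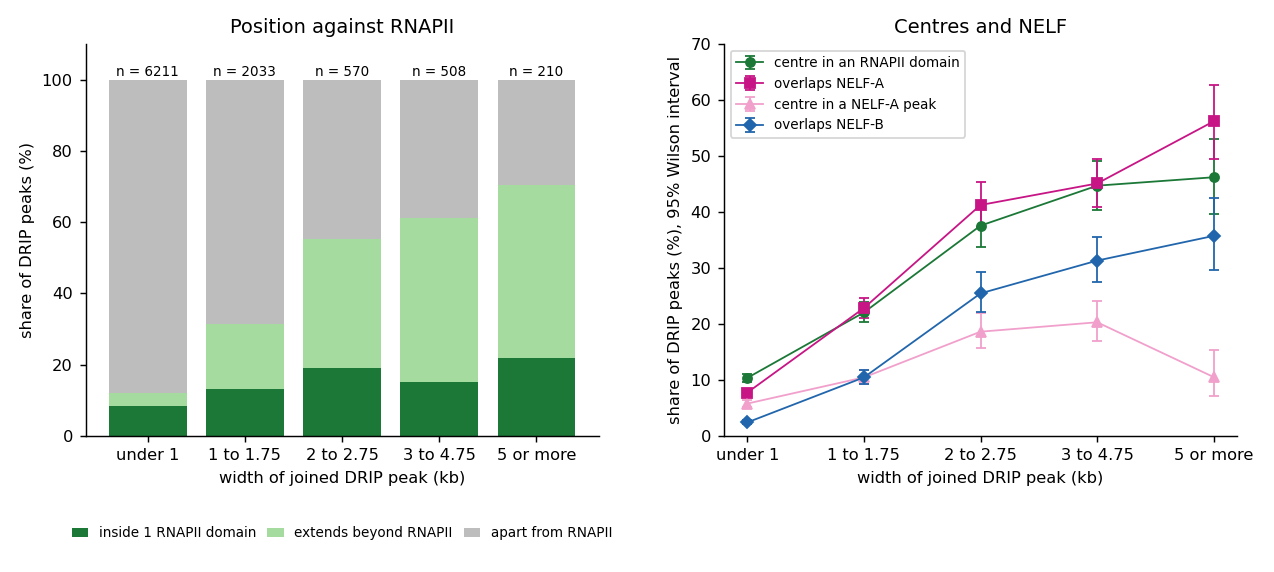
Left, share of joined DRIP peaks (percent, vertical axis) that lay inside, extended beyond or lay apart from RNAPII, by width in kb (horizontal axis). Right, share whose centre lay in RNAPII or NELF-A and share that overlapped NELF-A or NELF-B, with 95% Wilson intervals. The centres in RNAPII level off near 45% from 3 kb on, while the centres in NELF-A fall to 10.5% in the widest class. The share of bases under NELF-A, not drawn, does not fall there (18.1%, against 16.9% in the class before).

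The 336 DRIP peaks that ran beyond RNAPII did so in 3 ways. In 180 the DRIP peak passed 1 end of 1 RNAPII domain, in 83 it passed both ends and so held the whole domain, and in 73 it bridged several domains. Where 1 end was passed, DRIP ran on for a median of 1750 bp (quartiles 750 and 2750, highest 8000 bp), and a median of 56.7% of the DRIP peak lay on RNAPII. The domains passed at both ends were short, with a median width of 1500 bp, and DRIP ran past their shorter side by a median of 500 bp and past the longer side by 1750 bp. In the bridging class the DRIP peak mostly covered 2 domains (highest 9), and of the 98 gaps it spanned between neighbouring domains, 66 were under 1000 bp, with a median of 625 bp. DRIP peaks that lay inside RNAPII sat in much longer domains, with a median width of 14000 bp, and covered a median of 32.5% of them. Which class a DRIP peak falls into therefore depends on the length of the RNAPII domain as well as on DRIP.

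Seen from the polymerase, longer RNAPII domains touched wide DRIP more often, which their length alone favours. Of the RNAPII domains of 5000 bp or more, 37.9% (159 of 419, interval 33.4 to 42.7%) touched a wide DRIP peak. Of those under 1000 bp, 2.02% (55 of 2726) did. The centre of the domain, which has no such advantage, lay in wide DRIP in 19.1% (80 of 419, 15.6 to 23.1%) and 1.87% (51 of 2726, 1.43 to 2.45%) of them. Of the 505 domains that touched wide DRIP, 346 were under 5000 bp. Domains with wide DRIP had a median width of 2750 bp, those with narrower DRIP alone 1750 bp and those without DRIP 1000 bp. The RNAPII score per 250 bp had medians of 82.2, 75.4 and 59.5 in the same order, with quartiles of 65.3 and 107 in the first group and 54.8 and 70.1 in the last.

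NELF-A was found at wide DRIP peaks that touched RNAPII and was rare at those that did not. It overlapped 347 of the 718 (48.3%, 44.7 to 52.0%), against 16.0% of all joined DRIP peaks, a contrast that length alone favours. The centre of the DRIP peak lay in NELF-A in 17.4% of wide peaks (14.8 to 20.4%) and 7.66% of narrower ones (7.12 to 8.23%). By bases, 17.5% of wide and 9.93% of narrower DRIP peaks were under NELF-A. With RNAPII, 323 of 459 held NELF-A, and without RNAPII 24 of 259 (9.27%) did, an odds ratio of 23.3 (95% Woolf interval 14.6 to 37.0). Pooled over DRIP peaks of exactly equal width it was 21.9 (13.4 to 35.8). Among DRIP peaks on RNAPII alone, wide ones differed little from narrower ones in NELF-A. It overlapped 323 of 459 wide ones and 614 of 953 of 1000 to 2750 bp, an odds ratio of 1.31 (1.03 to 1.67), with no allowance for width. NELF-B overlapped 234 wide DRIP peaks (32.6%, 29.3 to 36.1%), against 7.75% of all. By bases, 9.03% of wide and 3.83% of narrower DRIP peaks were under NELF-B. At wide DRIP peaks it came almost always with NELF-A: of those on RNAPII, 1 had NELF-B without NELF-A, and of those apart 2 did.

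The ways of lying on RNAPII differed in how often the DRIP peak itself overlapped NELF. DRIP peaks that extended beyond RNAPII overlapped NELF-A in 258 of 336 cases (76.8%, 72.0 to 81.0%), and those inside RNAPII in 65 of 123 (52.8%, 44.1 to 61.4%). The odds ratio was 2.95 (1.91 to 4.56), and 2.71 (1.70 to 4.32) at exactly equal DRIP width. The share was 86.7% (77.8 to 92.4%) where DRIP held the whole RNAPII domain, 78.9% (72.4 to 84.2%) where it passed 1 end and 60.3% (48.8 to 70.7%) where it bridged several domains. A DRIP peak that holds a whole domain overlaps any NELF-A in it, while inside peaks covered a median of 32.5% of their domain. Geometry therefore favours a higher share where DRIP extends than inside, also at equal DRIP width. For NELF-B the difference between extending (51.8%) and inside (40.7%) was smaller, with an odds ratio of 1.57 (1.03 to 2.38). The 58 inside peaks without NELF-A were mostly not far from it: 48 of them had a NELF-A peak within 10000 bp, at a median gap of 3625 bp over all 58. Their host domains had a median width of 18500 bp, against 12750 bp for the inside peaks with NELF-A. Of all 123 inside peaks, 115 lay in a domain that held NELF-A somewhere.

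Where DRIP and NELF-A met, NELF-A was mostly centred within the DRIP peak. Of the 347 wide DRIP peaks with NELF-A, 295 had 1 NELF-A peak and 52 had 2 or more. The centre of the highest-score NELF-A peak lay outside the DRIP peak in 51 of the 347 (14.7%). The share that the widths of the peaks alone would give was not computed. Of the 377 NELF-A peaks centred within wide DRIP, 46.4% (175, interval 41.4 to 51.5%) lay within 25% of the DRIP width from an end, and NELF-A spread evenly would give 50%, which the interval includes. In the outer 10%, 14.9% (56, 11.6 to 18.8%) were found, where an even spread of continuous positions would give 20%. Centres move in steps set by the 250 bp grid, and those right on a DRIP end count as outside. This can put the even share under 20%, by an amount that was not computed. Fewer NELF-A centres near the ends were therefore not shown. DRIP peaks of 1000 to 2750 bp gave 45.1% (39.9 to 50.3%) and 16.3% (12.8 to 20.5%), intervals that overlap those of wide peaks. Set against the width of the RNAPII domain, the share of NELF-A centres near its ends differed by class. In the 97 RNAPII domains that held a wide DRIP peak inside, 74.0% (108 of 146, 66.3 to 80.4%) of NELF-A centres lay in the outer 25% of the domain. In the 177 domains passed at 1 end, 48.6% (87 of 179, 41.4 to 55.9%) did, an interval that includes the even 50%. The domains were of unlike width, with medians over the DRIP peaks of 14000 bp and 3250 bp. The same distance in bp from an end can therefore be outer in the first and not in the second. Whether that distance differed was not tested.

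The position of NELF-A along a wide DRIP peak was close to that of an even spread. In the 247 DRIP peaks with 1 NELF-A peak centred within, the shorter side had a median of 1250 bp (quartiles 750 and 1625) and the longer side 2875 bp (2250 and 3750). The shorter side was a median of 28.3% of the width and the ratio of the sides had a median of 2.54, where even placement would give 25% and 3. The shorter side was near 1 kb in each class on RNAPII, with medians of 1125 bp inside RNAPII, 1250 bp where 1 end was passed and 1375 bp where both were. The longer side was at least 1500 bp because of the 3000 bp minimum. In the 11 such peaks apart from RNAPII the shorter side was 500 bp and the longer 3500 bp.

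The directions of the longer DRIP side and the longer RNAPII side from NELF-A were compared. The comparison used DRIP peaks with 1 NELF-A peak and 1 RNAPII domain that both held the NELF-A centre. The longer DRIP side and the longer RNAPII side lay in the same direction from NELF-A in 129 of 183 (70.5%, 63.5 to 76.6%), and a further 25 had equal sides in one of them. By class the share was 89.1% (41 of 46, 77.0 to 95.3%) inside RNAPII and 78.0% (39 of 50, 64.8 to 87.2%) where DRIP held the domain, but 56.3% (49 of 87, 45.9 to 66.3%) where it passed 1 end, an interval that includes 50%. Where one peak lies within the other, its sides cannot reach past those of the other, which favours the same direction inside RNAPII and where DRIP held the domain, and so in the pooled share. No shared direction was therefore shown beyond that geometry. Turned so that the longer DRIP side lay to the right of NELF-A, RNAPII covered on average, over 227 DRIP peaks, 44.1% of the bin from 2000 to 2250 bp and 38.5% of that from 4000 to 4250 bp. On the shorter side it covered 22.5% from 2250 to 2000 bp and 13.9% from 4250 to 4000 bp before NELF-A. Close to the centre NELF-A was alike on both sides, with 62.2% to the right and 62.1% to the left between 500 and 750 bp. Farther out, between 2250 and 2500 bp, it covered 1.10% to the right and 6.61% to the left, and NELF-B 0.44% and 1.76%. DRIP covered 76.0% of that bin at the right and 9.03% at the left. Only DRIP peaks with 1 NELF-A peak were used, which bars a second one mainly at the right. No difference in NELF between the sides was therefore shown.

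**Figure D2:**
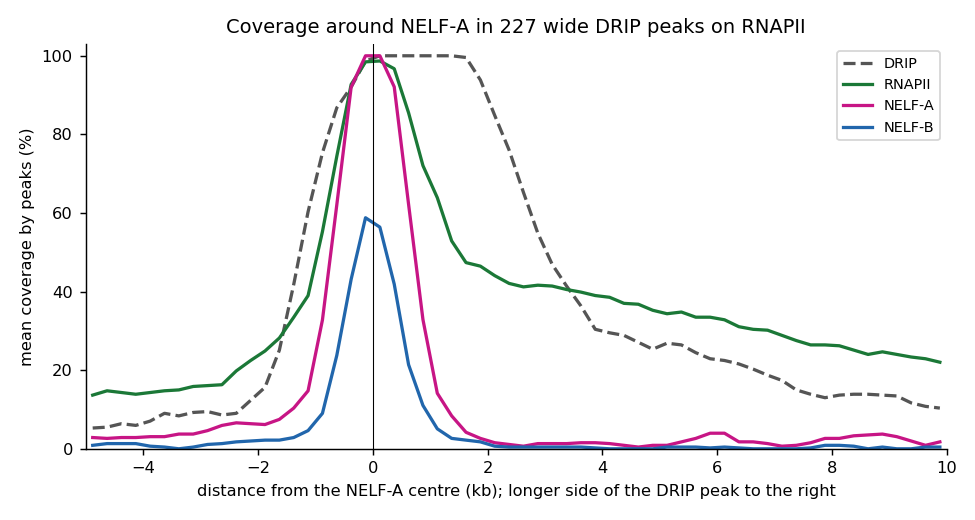
Mean coverage (percent, vertical axis) by DRIP, RNAPII, NELF-A and NELF-B peaks against distance in kb from the NELF-A centre (horizontal axis), over 227 wide DRIP peaks on RNAPII with 1 NELF-A peak and sides of unequal length, each turned so that the longer DRIP side is at the right. The DRIP asymmetry is set by the turning; RNAPII is also higher at the right, 38.5% against 13.9% at 4 kb, which peaks lying within one another favour by geometry.

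DRIP peaks that passed 1 end of an RNAPII domain mostly passed the end where NELF-A lay. Of the 180 such peaks, 78 had a domain whose highest-score NELF-A peak was centred in its outer 25% at 1 end. In the other 102, the domain held no NELF-A (22) or held it nearer the middle (80). DRIP passed the NELF-A end in 66 of the 78 (84.6%, 75.0 to 91.0%) and the far end in 12. It ran past the NELF-A end by a median of 875 bp (quartiles 750 and 1750, highest 5500 bp) and past the far end by 1750 bp (688 and 2313, highest 3750 bp). In RNAPII domains of 3000 bp or more, 62 of 70 were passed at the NELF-A end (88.6%, 79.0 to 94.1%). In shorter ones 4 of 8 were. With a minimum DRIP width of 2000 bp, which takes in these peaks, DRIP passed the NELF-A end in 107 of 136 cases (78.68%, 71.05 to 84.72%). With 5000 bp it did in 20 of 22 (90.91%, 72.19 to 97.47%). The share among narrower DRIP peaks alone is not given here. Where DRIP held a whole domain, whose median width was 1500 bp, the longer overhang lay on the NELF-A side in 5 of 21 cases (23.8%, 10.6 to 45.1%), the opposite direction. Of the 123 DRIP peaks inside RNAPII, 97 lay in an oriented domain with unequal gaps. Of these, 59 (60.8%, 50.9 to 69.9%) were nearer to the NELF-A end. Over the 100 inside peaks in an oriented domain, the median gap was 3250 bp to the NELF-A end and 5875 bp to the far end. Some of these peaks lay in the same RNAPII domain, which links their positions, and the interval takes no account of this. A preference for the NELF-A end was therefore not shown for DRIP peaks inside RNAPII.

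**Figure D3:**
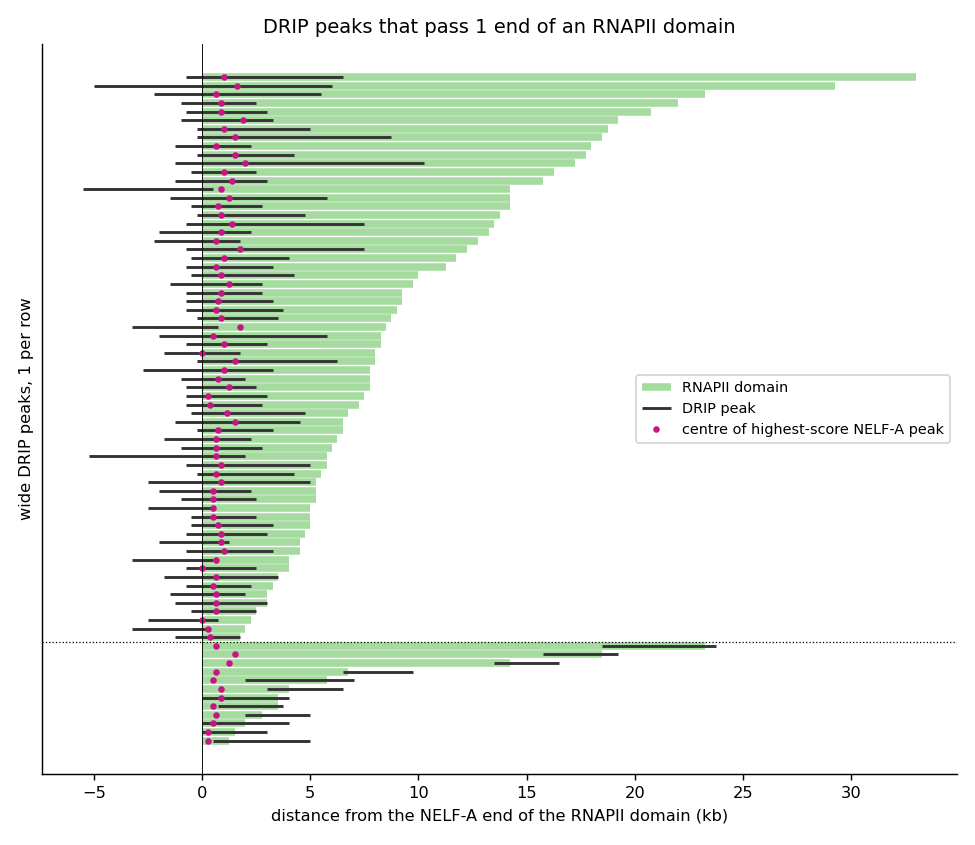
Each row is 1 of 78 wide DRIP peaks (dark line) that passed 1 end of an RNAPII domain (green bar), against distance in kb from the end of the domain nearer to NELF-A (horizontal axis); dots mark the centre of the highest-score NELF-A peak. The 66 rows above the dotted line pass the NELF-A end and the 12 rows under it pass the far end.

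Where RNAPII was present, NELF-A peaks under DRIP, wide or narrower, had higher median scores than those without DRIP. Among NELF-A peaks on RNAPII, the median score was 54.5 (quartiles 30.3 and 92.0, n = 386) with wide DRIP, 51.0 (33.0 and 72.0, n = 898) with narrower DRIP and 35.0 (24.0 and 49.0, n = 4444) without DRIP. The quartiles of the first 2 groups overlap widely. Median widths of these NELF-A peaks were 1250, 1250 and 1000 bp in the same order, and the score is a sum per peak with no allowance for width. The 42 NELF-A peaks with wide DRIP but no RNAPII had a median score of 14.0, and the lowest score in the list is 9. Their median width was 500 bp, against 1250 bp with RNAPII.

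The 259 wide DRIP peaks apart from RNAPII were not uniformly remote. Directly adjacent to an RNAPII peak were 15. The gap was under 1 kb in 34 (13.1%, 9.55 to 17.8%), 1 to 3 kb in 30, 3 to 10 kb in 49, 10 to 100 kb in 86 and over 100 kb in 60 (23.2%, 18.4 to 28.7%), with a median of 14000 bp. Narrower DRIP peaks apart from RNAPII were farther away, with a median gap of 50875 bp and 38.6% (37.5 to 39.7%) over 100 kb. NELF-A overlapped 8 of the 34 nearest peaks, 2 of 30, 1 of 49 and 10 of 86 in the classes that follow, and 3 of the 60 most distant, with no steady decline over distance. DRIP score per 250 bp had a median of 23.9 in this class, 28.8 where DRIP extended beyond RNAPII and 33.0 inside, and the lowest value among wide DRIP peaks was 19.1. Many lay beside further DRIP peaks: 42.9% (37.0 to 48.9%) had another within 1000 bp, against 21.3% (20.3 to 22.2%) of narrower DRIP peaks apart from RNAPII. Wide DRIP peaks inside RNAPII gave 39.8% (31.6 to 48.7%), an interval that overlaps that of the peaks apart.

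**Figure D4:**
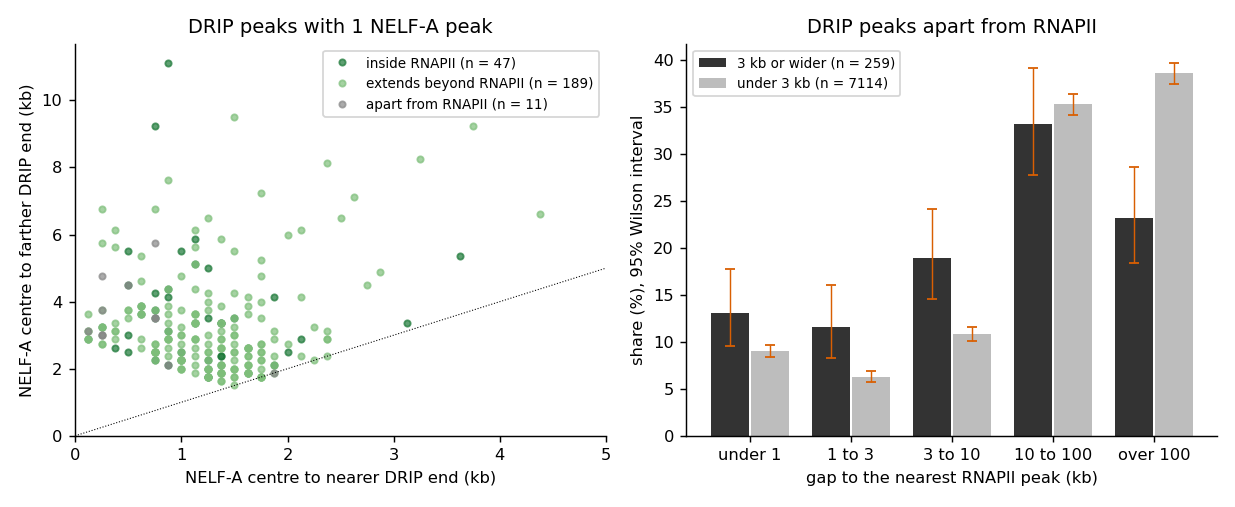
Left, distance in kb from the NELF-A centre to the nearer (horizontal axis) and farther end (vertical axis) of each of 247 wide DRIP peaks with 1 NELF-A peak; the dotted line marks equal sides. Right, share (percent, with 95% Wilson intervals) of DRIP peaks apart from RNAPII in 5 classes of gap to RNAPII in kb, where 23.2% of 259 wide and 38.6% of 7114 narrower peaks lie over 100 kb away.

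Wide DRIP peaks were unevenly spread over the genome. Their number per chromosome ran from 6 on the X chromosome (3.68% of its 163 joined DRIP peaks, interval 1.70 to 7.80%) to 87 on chromosome 11 (7.63% of 1140). The highest share was 10.05% (61 of 607, 7.90 to 12.7%) on chromosome 7, and that on chromosome 9 was 3.79% (22 of 580, 2.52 to 5.68%). Another wide DRIP peak lay within 100000 bp of 326 of the 718 (45.4%). Groups of 4 or more with gaps of at most 100000 bp numbered 11 and held 60 peaks, and the following 4 were chosen after their values were seen. The largest, on chromosome 8 from 19698751 to 20025000, held 10 peaks of 3000 to 5000 bp, all between 3561750 and 3884500 bp from the nearest RNAPII peak and none on NELF-A, although NELF-A came within 750 bp of 3 of them. On chromosome 1 from 85241751 to 85282750, 5 wide DRIP peaks lay at least 405250 bp from RNAPII, and 1 of them overlapped NELF-A. In contrast, 7 of 8 peaks on chromosome 10 from 79513501 to 79640750 touched RNAPII, and the other 1 adjoined it. All 5 on chromosome 19 from 5795001 to 5846750 lay inside RNAPII, 2 of them with NELF-A. Reads of repeated sequence in these groups were not tested.

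The 3 widest DRIP peaks inside RNAPII showed 3 positions of NELF-A. On chromosome 8 from 86729751 to 86748000, an 18250 bp DRIP peak with a score of 3358 lay within an RNAPII domain of 35500 bp. No NELF-A overlapped it, but 2 NELF-A peaks with scores of 94 and 188 lay in the same domain before its start, the nearer 1250 bp away, and DRIP peaks continued on both sides. On chromosome 1 from 36364251 to 36380500, a 16250 bp DRIP peak with a score of 3845 began on the same base as its RNAPII domain of 21000 bp and as a NELF-A peak of score 190. A second NELF-A peak of score 30 followed, and the other 13500 bp of DRIP held none. On chromosome 11 from 100747251 to 100760750, a 13500 bp DRIP peak with a score of 1776 lay in an RNAPII domain of 29500 bp without NELF-A, and the nearest NELF-A peak was 25000 bp away.

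The widest DRIP peaks named here that extended beyond RNAPII all bridged several RNAPII domains. The first of all, 74750 bp wide with score 26502, at 3025501 to 3100250 of chromosome 11, held 9 RNAPII domains on 84.6% of its length and 5 NELF-A peaks with scores of 17 to 2326. The 39000 bp peak of score 22429, at 2999751 to 3038750 of chromosome 9, also held 9 RNAPII domains, but on 21.2% of its length, and 15 NELF-A and 14 NELF-B peaks. A DRIP peak of 20750 bp and score 6905, at 166426501 to 166447250 on X, held 3 RNAPII domains on 16.9% of its length, 8 NELF-A and 5 NELF-B peaks. Its NELF-A scores ran from 9 to 66, and DRIP went on for 11000 bp after the last RNAPII domain. The first 2 belong to 10 wide DRIP peaks in regions of extra-high signal, defined as places where 3 or more of the 4 lists have a peak that is among its 10 highest scores or in its top 1% for score divided by width. None of the 259 peaks apart from RNAPII is among the 10, which allows a share of up to 1.16% by the limit of 3 counts (the Wilson upper bound is 1.46%). Touching or overlapping peaks of all lists form 1 such place. A peak apart from RNAPII whose place takes in no RNAPII peak meets this definition only if all 3 other lists do.

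The highest NELF-A scores under wide DRIP came from the same kind of region. A DRIP peak of 6500 bp and score 8366, at 39979751 to 39986250 of chromosome 17, had exactly the ends of its RNAPII domain and held the NELF-A peak of score 3128. The second highest, 2326, was on chromosome 11 in the widest DRIP peak. The third, 385, was on chromosome 2 from 98502001 to 98505750, a DRIP peak of 3750 bp that bridged 2 RNAPII domains and held 3 NELF-A and 3 NELF-B peaks. All 3 are regions of extra-high signal, and reads of repeated sequence were not tested there.

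The widest DRIP peaks apart from RNAPII had little or no NELF. The peak of 55500 bp and score 11510, at 166577501 to 166633000 on X, lay 141250 bp from RNAPII and 134750 bp from both NELF-A and NELF-B. On chromosome 6, a peak of 36000 bp from 47601251 to 47637250 with a score of 5612 was 55500 bp from RNAPII, and a NELF-A peak of score 39 overlapped its first 500 bp. The next, 30000 bp from 47687001 to 47717000 with a score of 4944, was 21250 bp from RNAPII, 21000 bp from NELF-A and 11250 bp from NELF-B.

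**Figure D5:**
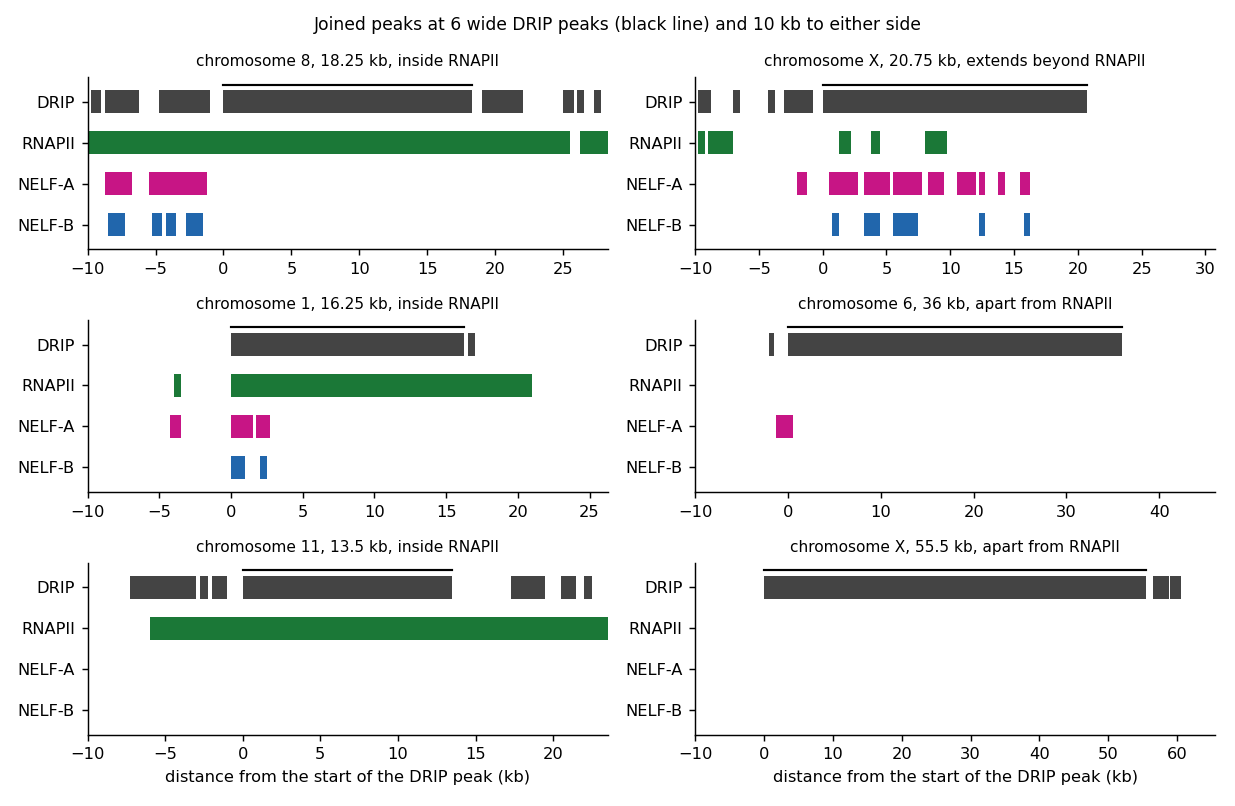
Joined peaks of the 4 lists at 6 of the wide DRIP peaks named in the text, marked by a black line, with 10 kb to either side, against distance in kb from the start of the DRIP peak (horizontal axis). Those inside RNAPII (chromosomes 8, 1 and 11) have NELF-A before, at the start of or nowhere near the DRIP peak, the 20.75 kb peak on the X chromosome has 8 NELF-A peaks, and both at the lower right have no RNAPII.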

How the data were processed

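ChIP-seq and DRIP-seq reads were aligned by the authors with BWA to mm9, per the submitters' processing notes. Of the peak caller, its threshold, any input control and how 2 libraries each of RNAPII and DRIP became 1 list, nothing is stated in those notes or the labels. Each deposited list gives chromosome, start, end and 1 whole number per peak, used as the authors' score, whose unit is not stated; it was used only within a list. Apart from 1 DRIP peak, ends lie on a 250 bp grid, which sets the precision of all distances, and the sequencing depth is unknown.

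Peaks were joined within each list where no base lay between them, and scores were summed. Joined peaks shared a site when they overlapped by 1 bp or more. Positions of NELF-A are those of peak centres. Intervals are 95% Wilson (shares) and Woolf (odds ratios), and pooled odds ratios are Mantel-Haenszel estimates. The scripts (Python 3.11.15, pandas 2.3.3) were tested on simulated peaks. The members, rules and lists were chosen with earlier results of these data known. Regions were named as the 5 widest, the 5 of highest score, the 3 widest per class and the 3 with the highest NELF-A score. Planned gene names, gene lists, marker checks and sequences were not used, since no mm9 genome or annotation was at hand and coordinates were not converted.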

Additional observations from a re-analysis of the deposited data

How the results depend on the processing

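Joining peaks across 500 bp, joining none, leaving out the X chromosome and leaving out regions of extra-high signal each left all 10 results within their intervals (count of wide DRIP peaks within 1.5 times). The odds ratio of NELF-A stayed above 1 under each alternative run for it. The direction of the longer sides and the share of centres in RNAPII were added, with their alternatives, after seeing the data. A minimum width of 2000 bp gave 1288 peaks, of which 42.08% extended beyond RNAPII and 39.91% lay apart. At 5000 bp there were 210, with 21.9% inside, 29.52% apart and 56.19% on NELF-A. Of NELF-A centres, 52.47% (44.81 to 60.01%) lay in the outer 25%, an interval that includes the even 50%. With the 50% of peaks of lower score left out of every list, 41.81% extended, 40.54% lay apart and 40.68% overlapped NELF-A. Requiring 50% of the shorter peak gave 40.95%, 41.92% and 43.59%, which turns the order of extending and apart. Counting peaks within 1000 bp as shared gave 51.53%, 31.34% and 54.6%, and 57.74% of NELF-A centres in the outer 25%. Centres up to 1000 bp outside the DRIP peak were then counted too, and all of these fall in the outer 25%. The even 50% therefore does not apply to that share, and it says nothing on where NELF-A lies within DRIP. NELF-B, used instead of NELF-A, overlapped 32.59%. With end zones of 10%, 14.85% of NELF-A centres lay in them. Allowing DRIP to pass an RNAPII end by 500 bp put 22.28% inside. The cause of these shifts was not tested, beyond the change in what counts as wide or shared. No paired analysis was possible because each target has 1 list with no replicate. Depth is unknown, so faint RNAPII or NELF at peaks counted as apart was not detectable here.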
